A study of Mus musculus with 2 samples.

Results

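The ligands and receptors of the EGF family were followed through the cell types of colitis-associated colon tumors (CACs) of mice. The set held 10 genes of the 32291 in the deposited table, chosen by name. It comprised the ligands *Areg*, *Ereg*, *Hbegf*, *Tgfa*, *Btc* and *Epgn*, the receptors *Egfr*, *Erbb2* and *Erbb3*, and the neuregulin *Nrg1*. All 10 had UMIs (unique molecular identifiers, each standing for a captured RNA molecule).

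Tumors were induced with azoxymethane (AOM), a colon carcinogen, and dextran sodium sulfate (DSS), which damages the colon lining. Mice aged 6 to 10 weeks received AOM at 10 mg/kg 5 days ahead of the first and of the second DSS period, DSS at 2.5% in these periods and 2% in the last, each for 5 days, and were killed on day 110. Both genotypes were female, carried floxed *Mir34a* alleles and had been backcrossed to C57Bl/6. The group labelled Mir34a_Mye_KO also carried LysM-Cre, in which the lysozyme M locus drives the recombinase in myeloid cells. Myeloid cells, among them macrophages and neutrophils, are thus the intended site of the deletion. How far it reached dendritic cells or other types was not measured here. The group labelled Mir34a_F/F were littermates without LysM-Cre. For each genotype, 6 to 8 tumors of 3 mice were pooled into 1 library, and the annotation names no mouse. There was therefore no replicate, no test between genotypes was made, and a difference between genotypes cannot be told apart from a difference between pools or libraries. Unless stated, 2 values in a sentence are given for the library labelled Mir34a_F/F first and the library labelled Mir34a_Mye_KO second.

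EGF family ligands are made as membrane-anchored precursors. Proteases cut them loose, among them Adam17, which the rhomboid-like proteins Rhbdf1 and Rhbdf2 guide. The freed ligands then bind receptors on the same or on neighboring cells. Areg, Ereg, Hbegf, Tgfa, Btc and Epgn bind Egfr, and some of them also Erbb4. Erbb2 binds no known ligand and acts as the partner of the other receptors, Erbb3 binds neuregulins and has a weak kinase, and Nrg1 reaches Erbb3 and Erbb4. In the colon, the pathway is known for driving the growth and repair of the epithelium.

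The deposited labels gave 11 cell types. The library labelled Mir34a_F/F had 20312 cells with a median of 4787 UMIs and the other 18571 cells with a median of 7716 UMIs. Epithelial cells were the largest type with 11614 and 9865 cells, and basophils with 48 and 40, fibroblasts with 57 and 60, and erythroid cells with 106 and 30 cells were the smallest. All defining markers were highest in their own cell type in both libraries, except 1 of 6 for dendritic cells and 1 of 5 for basophils. Cell by cell, the marker list with the highest score was that of the deposited type in 54.8% and 69.6% of macrophages, 62.8% and 69.2% of T cells and 98.3% and 95.9% of epithelial cells. The median share of mitochondrial UMIs in epithelial cells was 11.2% and 18.3%. Of the cell barcodes, 96 occurred in both libraries, 0.517% of the smaller one. Features named for Cre alone and for the *Mir34a* hairpin, stem-loop and mature forms had 0 UMIs in every cell type of both libraries. They cannot check the genotype. The other features named for *Mir34a* or Cre, taken by their names, went against the labels in macrophages. In macrophages, the feature for the *Mir34a* primary transcript had 133 UMIs in the first and 462 in the second library (95% Poisson intervals 111 to 158 and 421 to 506), at levels of 0.0723 and 0.111. A feature joining Cre and *Lyz2* had 451 (410 to 495) and 172 (147 to 200) UMIs there, which are levels of 0.164 and 0.0490. Whether these features lie within the deleted part is not given in the sources used here. Nor is it given whether RNA of *Lyz2* alone counts toward the joined feature. All directions below therefore rest on the labels.

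Because the deleted gene encodes a microRNA, the members were searched for letters that its seed can pair with. The mature miRNA lies on chr4:150068473-150068494 (plus strand, GRCm38.p6, RefSeq) and is printed with its seed, bases 2 to 8, in capitals.
mmu-miR-34a-5p: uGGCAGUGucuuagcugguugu
The seed match CACTGCC was searched in the annotated 3′ UTRs, of at least 30 bases, of all protein-coding transcripts of a gene. It was present in any of them for 3158 of 20830 genes (15.2%) and for 3 of the 10 members, *Egfr*, *Nrg1* and *Tgfa*. With an A after it (CACTGCCA), it was present in 1096 genes (5.26%), among them *Egfr* and *Nrg1*. These matches are printed with the searched letters in capitals, in the direction of transcription on GRCm38 with GENCODE M21 transcripts.
Egfr, chr11:16913425-16913451, plus strand: ggttgagagcCACTGCCttcaaggctt
Egfr, chr11:16915057-16915083, plus strand: catgtaccctCACTGCCAatgaaaagt
Nrg1, chr8:31815519-31815545, minus strand: tacagtgcttCACTGCCAggtctctct
Tgfa, chr6:86275089-86275115, plus strand: aacactctgaCACTGCCtacaggcccc
A match is a description of the sequence and no evidence that the miRNA acts on it. *Epgn*, *Ereg*, *Areg* and *Btc* are neighbors on chromosome 5 within 375.5 kb, and their levels below are given by cell type. Promoters, from 250 bases before to 50 after the start, were listed for *Epgn*, *Areg*, *Btc*, *Tgfa*, *Egfr* and *Erbb2* (RefSeq, GRCm38.p6). The cAMP response element TGACGTCA, searched on both strands, was found in 588 of 32851 promoters (1.79%) and among these 6 members in that of *Areg*, 61 bases before the start, printed with the element in capitals.
Areg, chr5:91139528-91139555, plus strand: ggctggtccgTGACGTCAcgggcggtgg
The AP-1 site TGANTCA, on both strands (7.81% of all promoters), and the serum response element (0.0639%) were found in none of the 6.

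Levels are means over the cells of a type of UMIs per 10000 UMIs of the cell. Intervals at 95% cover only the counting error of the summed UMIs. Levels were compared between cell types and libraries for a gene, not between genes. The plot of levels shows all members.

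**Figure D1:**
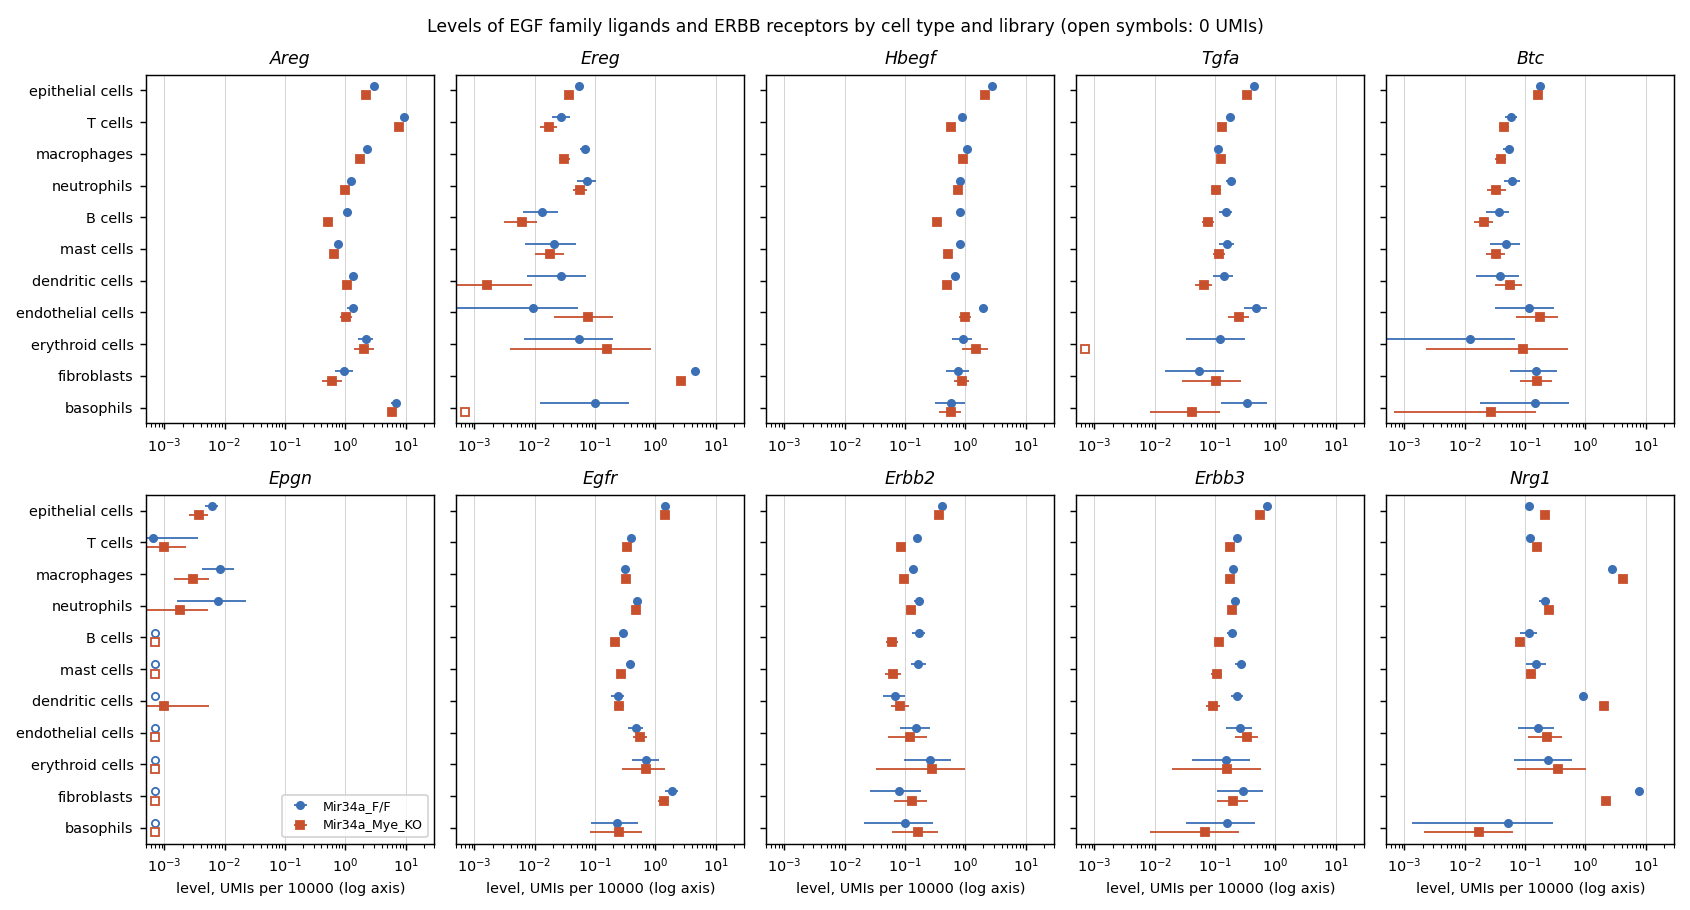
Level of each member, in UMIs per 10000 on a log axis, in the 11 cell types of the library labelled Mir34a_F/F (circles) and the library labelled Mir34a_Mye_KO (squares). Bars are 95% Poisson intervals, cut at the edge of the axis, and open symbols at the left mark 0 UMIs. *Areg* was highest in T cells and *Ereg* in fibroblasts in both libraries, and *Nrg1* in fibroblasts or macrophages.

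*Areg*, the ligand amphiregulin, which T cells and other immune cells are known to release for tissue repair, was highest in T cells and not in the epithelium. T cells had a level of 9.44 (9.29 to 9.60) and 7.64 (7.54 to 7.75), from 13638 and 20475 UMIs. Epithelial cells had 2.98 (2.95 to 3.01) and 2.24 (2.21 to 2.27). T cells thus stood above epithelial cells in both libraries, although epithelial cells, being many more, held 60.7% and 43.3% of all *Areg* UMIs and T cells 26.4% and 38.4%. Basophils came next to T cells with 6.88 (5.73 to 8.21) and 5.91 (5.08 to 6.83), from 124 and 181 UMIs, but a single cell with 111 UMIs made up 47.4% of the level in the library labelled Mir34a_Mye_KO. Cells labelled basophils also held all 5 neutrophil markers, at a summed level of 459.9 and 396.2 against 1586 and 1038 in neutrophils, their own 5 markers were at 60.6 and 48.1, and 52.1% and 40% of them scored as basophils. The part of neutrophils in the basophil value was not tested, and neutrophils had less *Areg*. Macrophages had 2.29 (2.22 to 2.36) and 1.77 (1.73 to 1.82). The order of T cells, basophils, epithelial cells and macrophages was the same in both libraries. Erythroid cells had 2.17 (1.64 to 2.83) and 2.08 (1.37 to 3.03), intervals that overlap those of macrophages in both libraries and of epithelial cells in the second, and the other 6 types had 0.767 to 1.33 and 0.515 to 1.07. A UMI of *Areg* was found in 47.0% and 57.1% of T cells, at median depths of 3548 and 8043 UMIs, against 31.7% and 41.9% of B cells at 3664 and 20852 UMIs. With each cell thinned to 1000 UMIs, these shares were 25.3% and 23.4% of T cells and 7.63% and 4.66% of B cells.

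Within T cells, *Areg* was concentrated in few cells. The 10% of T cells with the most held 79.7% and 77.6% of the level. T cells with a UMI of *Trdc*, the constant region of the delta chain of gamma delta T cell receptors, were 206 and 204 cells and had an *Areg* level of 43.1 and 23.8, against 7.04 and 6.29 in the remaining T cells. This is a log2 difference of 2.61 (2.56 to 2.67) and 1.92 (1.88 to 1.97). These cells were a little deeper, with medians of 4457 against 3474 and 9443 against 7901 UMIs. T cells with a UMI of *Cd8a*, a coreceptor of cytotoxic T cells, had a lower *Areg* level of 4.81 and 0.951, against 9.71 and 8.10 without it. *Cd4*, the coreceptor of helper T cells, went with a higher level, 12.3 against 8.49 and 9.10 against 6.52. *Foxp3*, the defining factor of regulatory T cells, did so with 11 against 9.16 and 11.6 against 6.49. The split by *Foxp3* was planned, whereas those by *Trdc*, *Cd8a* and *Cd4* were chosen after the levels were seen, so these values are descriptions.

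*Ereg*, the ligand epiregulin, was a transcript of fibroblasts. Its level there was 4.57 (3.90 to 5.32) and 2.67 (2.35 to 3.03), from 166 and 245 UMIs in 57 and 60 cells. No other cell type was above 0.155 in either library. Fibroblasts held 17.5% and 29.1% of all *Ereg* UMIs, and epithelial cells, at levels of 0.0540 and 0.0377, held 59.6% and 43.5%. A UMI of *Ereg* was found in 23 of 57 and 24 of 60 fibroblasts, compared with 1.04% and 1.13% of T cells. The fibroblast signal rested on part of the cells. Those with a UMI of *Pdgfra*, a receptor of mesenchymal cells, had 7.27 and 4.28, against 0.847 and 0.423 in those without it, and the cell with the highest level made up 21.8% and 25.4% of the type's level. Macrophages had 0.0688 (0.0573 to 0.0819) and 0.0312 (0.0254 to 0.0380), and those with a UMI of *Arg1*, the enzyme arginase of alternatively activated macrophages, 0.103 and 0.0609 against 0.0443 and 0.0204.

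*Hbegf*, heparin-binding EGF-like growth factor, was highest in epithelial cells, with 2.73 (2.70 to 2.76) and 2.13 (2.10 to 2.16), which held 86.4% and 77.5% of its UMIs. Endothelial cells had 2.00 (1.66 to 2.38) and 1.0 (0.785 to 1.25), from 123 and 74 UMIs. Macrophages had 1.06 (1.02 to 1.11) and 0.919 (0.886 to 0.953). Endothelial cells thus exceeded macrophages in the library labelled Mir34a_F/F, whereas the intervals overlapped in the other. Erythroid cells, at 0.901 and 1.5 on 29 and 18 UMIs, had intervals wide enough in the second library to reach the epithelial level.

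*Tgfa*, transforming growth factor alpha, had 0.449 (0.436 to 0.462) and 0.346 (0.334 to 0.358) in epithelial cells. Endothelial cells, at 0.480 (0.308 to 0.715) and 0.252 (0.163 to 0.372) on 24 and 25 UMIs, did not differ from them beyond counting error. *Btc*, betacellulin, had 0.179 (0.171 to 0.187) and 0.166 (0.158 to 0.174) in epithelial cells, and the intervals of fibroblasts and endothelial cells, on 4 to 12 UMIs, included these values. *Epgn*, epigen, was barely detected. It had 88 and 52 UMIs in all, of which epithelial cells held 72 and 33, at levels of 0.00614 and 0.00370. In 6 cell types it had 0 UMIs in both libraries, which in B cells, for example, allows a level of up to 0.00453 and 0.00147 (3 counts).

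Among the receptors, *Egfr* was high in epithelial cells and in fibroblasts. Epithelial cells had 1.47 (1.44 to 1.49) and 1.44 (1.42 to 1.46), from 14770 and 16543 UMIs, and held 88.0% and 84.8% of its UMIs. Fibroblasts had 1.86 (1.43 to 2.38) and 1.38 (1.12 to 1.69), so that the order of both types is not set by these counts. All other types were between 0.236 and 0.714 in the library labelled Mir34a_F/F and between 0.218 and 0.708 in the other. *Erbb2* was highest in epithelial cells with 0.409 (0.396 to 0.424) and 0.371 (0.359 to 0.384). Erythroid cells, on 6 and 2 UMIs, had intervals that reach these levels, and in thinned cells fibroblasts led in the library labelled Mir34a_Mye_KO. *Erbb3* was highest in epithelial cells with 0.736 (0.719 to 0.754) and 0.560 (0.545 to 0.575), and the interval of erythroid cells in the second library, on 2 UMIs, reaches this level. Epithelial cells held 82.5% and 82.9% of *Erbb2* UMIs and 87.0% and 81.1% of *Erbb3* UMIs. *Erbb4*, the remaining receptor and no member of the set, had 251 and 172 UMIs in epithelial cells, at levels of 0.0294 and 0.0265.

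Several low levels of these genes outside the epithelium were close to those in step with epithelial markers. Those of *Nrg1* in T cells and neutrophils were not, but were near those in step with macrophage markers. The 6 epithelial markers (*Epcam*, *Krt8*, *Krt18*, *Krt19*, *Cdh1* and *Cldn7*) were all above 0 in every cell type of both libraries. Their summed level was 83.7 and 58.3 in epithelial cells, and 20 to 52.7 and 11.9 to 43.3 in the other types. For each member, the level that a type would have in step with these markers was set beside the measured one. For *Egfr* in the other types than fibroblasts this was 107% to 162% of the measured level, apart from endothelial cells in the library labelled Mir34a_Mye_KO (92.5%) and basophils (230% and 149%). In B cells it was 91.5% and 88.8% for *Areg*, 110% and 129% for *Hbegf*, and 78.5% and 125% for *Erbb2*. Most measured levels there were thus below what was in step with the markers, and the rest not far above it. Other levels exceeded it clearly. In T cells the level in step was 11.6% and 8.5% of the measured *Areg*, in basophils 16.0% and 10.0%, and in macrophages 36.4% and 38.7%. In fibroblasts it was 0.448% and 0.507% for *Ereg* and 29.8% and 37.5% for *Egfr*. For *Nrg1* it was 1.18% and 1.57% in macrophages, and where *Nrg1* was low it was still 34.5% and 38.4% in T cells and 21.9% and 30.1% in neutrophils. In these types *Nrg1* went from 0.122 to 0.161 and from 0.211 to 0.249 between the libraries. The 6 macrophage markers were at a summed level of 2.465 and 2.25 in T cells and 2.749 and 3.23 in neutrophils. In macrophages, which held most *Nrg1* UMIs, they were at 42.9 and 50.8. Scaled by these sums, the *Nrg1* level of macrophages, 2.73 and 4.14, comes near the measured levels of both types. The log2 ratio of *Nrg1* in neutrophils, 0.24 (-0.11 to 0.61), has an interval that holds 0. The part of free RNA or of attached epithelial cells or macrophages in these levels was not tested.

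**Figure D2:**
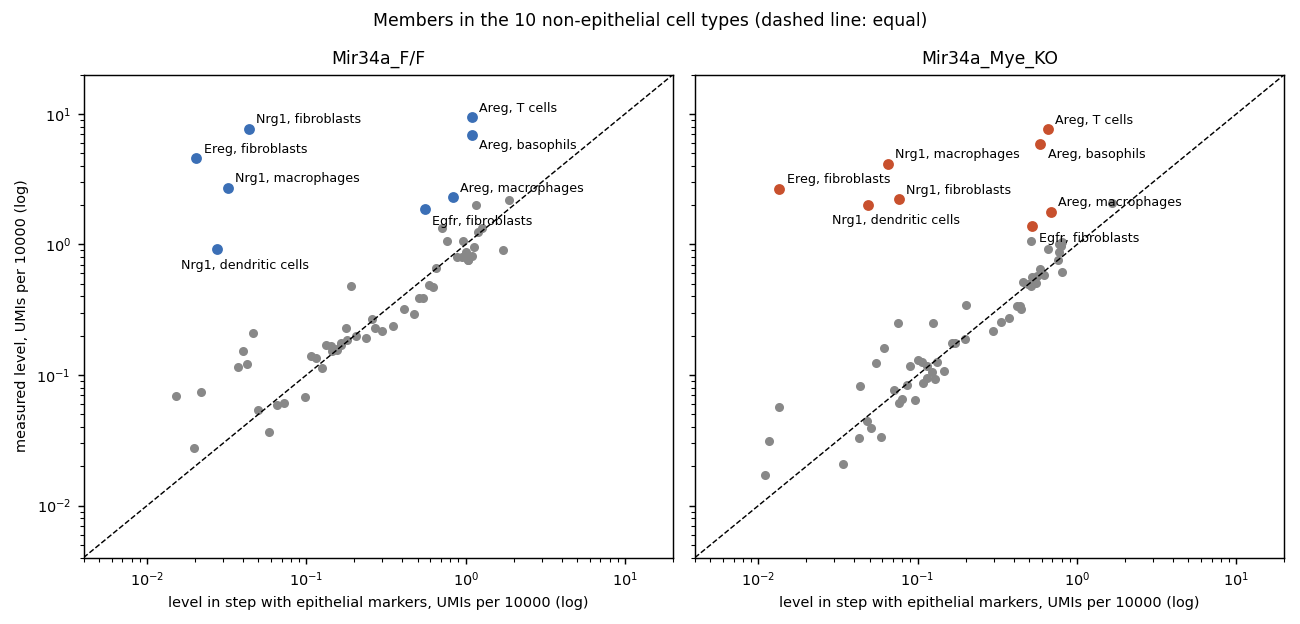
Measured level of the members in the 10 other cell types against the level they would have in step with the 6 epithelial markers, both in UMIs per 10000 on log axes, 1 point per member and cell type with at least 20 UMIs, for each library. Points on the dashed line have equal values. *Areg* in T cells, *Ereg* in fibroblasts and *Nrg1* in macrophages, dendritic cells and fibroblasts lie far above the line.

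*Nrg1*, neuregulin 1, belonged to macrophages, dendritic cells and fibroblasts. Macrophages had 2.73 (2.65 to 2.81) and 4.14 (4.07 to 4.20), from 4531 and 16087 UMIs, and held 75.8% and 82.3% of all *Nrg1* UMIs. Fibroblasts had 7.68 (6.74 to 8.72) and 2.22 (1.90 to 2.57), from 240 and 174 UMIs. Dendritic cells had 0.919 (0.807 to 1.04) and 2.02 (1.92 to 2.13), from 244 and 1416 UMIs. Fibroblasts thus led in the library labelled Mir34a_F/F and macrophages in the library labelled Mir34a_Mye_KO, where fibroblasts and dendritic cells had overlapping intervals. The remaining types were at 0.0523 to 0.238 and 0.0175 to 0.351. A UMI of *Nrg1* was found in 36.9% and 43.4% of macrophages, at median depths of 7251.5 and 11227 UMIs, against 3.43% and 9.36% of T cells. Thinned to 1000 UMIs, the shares were 15.1% and 18.4% of macrophages and 0.999% and 1.48% of T cells. Of the macrophages, the 10% with the most *Nrg1* held 72.7% of the level in both libraries.

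*Nrg1* was not even within these types. In dendritic cells, those with a UMI of *Ccr7*, the homing receptor of mature dendritic cells, had 1.24 and 3.46, against 0.671 and 0.864 in those without it. Those with a UMI of *Xcr1*, a receptor of cross-presenting dendritic cells, had 0.277 and 0.0842 against 1.03 and 2.39. In fibroblasts, *Nrg1* was 12.8 and 3.49 in cells with a UMI of *Pdgfra* and 0.683 and 0.443 in cells without, as *Ereg* was. Both *Ereg* and *Nrg1* were found in 12 of 57 and 9 of 60 fibroblasts. In macrophages the splits were smaller and some turned between libraries. Macrophages with a UMI of *Axl*, a receptor for dying cells, had 2.37 against 3.01 in the library labelled Mir34a_F/F and 4.72 against 3.51 in the other. *Ly6c2*, a marker of monocytes, went with a lower *Nrg1* level in both, 2.24 against 2.86 and 3.22 against 4.35. The splits by *Ccr7*, *Xcr1*, *Pdgfra* and *Axl* were chosen after the levels were seen.

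**Figure D3:**
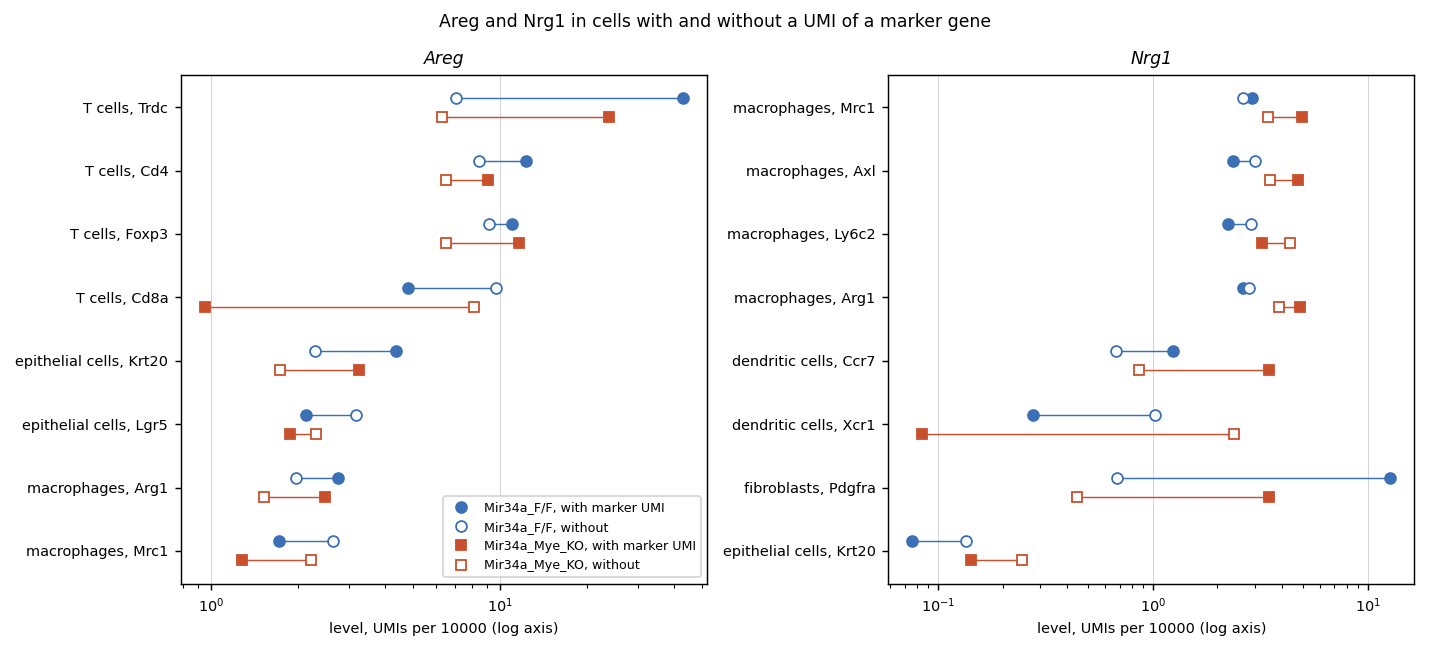
Level of *Areg* (left) and *Nrg1* (right), in UMIs per 10000 on a log axis, in cells with (filled) and without (open) a UMI of the marker gene named on the left, for the library labelled Mir34a_F/F (blue circles) and the library labelled Mir34a_Mye_KO (red squares). The *Areg* level of T cells was 43.1 and 23.8 with *Trdc* and 7.04 and 6.29 without, and the *Nrg1* level of dendritic cells with *Ccr7* was 1.24 and 3.46.

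Within the epithelium, the levels of *Areg*, *Hbegf* and *Egfr* were higher in cells with a marker of differentiation. Cells with a UMI of *Krt20*, a keratin of differentiated colon cells, had an *Areg* level of 4.36 against 2.29 in the library labelled Mir34a_F/F and 3.25 against 1.73 in the other. *Hbegf* was 3.55 against 2.32 and 3.11 against 1.64. *Egfr* was 2.28 against 1.06 and 2.37 against 0.972. All these were higher with *Krt20* in both libraries, and *Nrg1* was lower, by 0.83 and 0.79 on the log2 scale. *Tgfa*, at 0.427 against 0.459 and 0.342 against 0.347, and *Btc*, at 0.195 against 0.171 and 0.177 against 0.160, differed little with *Krt20*. The *Krt20* cells were deeper, with medians of 7804.5 against 4256.5 and 11021 against 4861 UMIs. In cells thinned to 1000 UMIs, the log2 differences of *Egfr* were 1.06 in both libraries, those of *Areg* 0.65 and 0.86, those of *Hbegf* 0.55 and 0.78, and those of *Nrg1* -0.39 and -0.03. Cells with a UMI of *Lgr5*, a marker of colon stem cells, had less *Areg*, 2.12 against 3.18 and 1.88 against 2.31. *Tgfa* was higher with *Lgr5*, 0.547 against 0.426 and 0.439 against 0.326. Of 62 pairs of a member and a planned split, 10 were past 1.5 fold in the same direction in both libraries, and 4 of 40 when cells were thinned. Over all genes 11.5% of such pairs were past it in the same direction, and 12.1% when thinned, so these counts of members are near those of any gene. Some members were found in the same cells. In thinned epithelial cells, a UMI of *Hbegf* was found in 27.9% and 26.6% of cells with *Areg* and in 19.4% and 16.2% of cells without, and a UMI of *Erbb3* in 10.1% and 8.78% of cells with *Erbb2* and in 6.23% and 5.30% of cells without. For a ligand and its receptor, *Egfr* was found in 15.9% and 16.5% of cells with *Areg* and 11.4% and 11.2% of cells without. *Erbb3* with *Egfr* was close to even, in 7.59% and 5.71% of cells with *Egfr* and 6.22% and 5.37% of cells without.

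The comparison of genotypes asks whether deletion of *Mir34a* in myeloid cells goes with other levels of these genes in the tumor. Most members were at lower levels in the library labelled Mir34a_Mye_KO, with 58 of 69 log2 ratios below 0, or 51 with the other totals described next, while 65.4% of all pairs of the table were below 0, or 49.3% with the other totals. *Nrg1* was higher there in macrophages and dendritic cells. Ratios of levels were taken for pairs of a gene and a cell type with at least 50 UMIs over both libraries, which were 69 of 110 pairs of the members. Past 1.5 fold, 3 pairs were higher and 21 lower in the library labelled Mir34a_Mye_KO, with a median log2 ratio of -0.40. Of all 101784 pairs of the table, 5.43% were higher and 15.4% lower past this fold. The median over all genes was below 0 in most types, -0.23 in epithelial cells and -0.34 in B cells, and moved to 0.03 and -0.03 when mitochondrial, immunoglobulin and ribosomal RNA-like genes were left out of the totals, a shift of 0.25 and 0.31. It also moved by over 0.1 in macrophages, endothelial cells, erythroid cells and fibroblasts. With these totals, 3 pairs of the members were higher and 16 lower, and 8.57% and 9.47% of all pairs. Relative to the median over all genes of the type, too, 3 were higher and 16 lower, against 8.45% and 9.39% of all pairs. The counts depend on the setting. With UMIs summed over cells, 4 of 69 pairs were higher and 26 lower, against 5.18% and 16% of all pairs. In cells thinned to 1000 UMIs, 2 were higher and 5 lower of 32, against 4.84% and 10.8%. With at least 200 UMIs, 3 were higher and 9 lower of 45, against 3.37% and 9.66%. Of the 32 pairs that stayed above 0 once a background cell type was subtracted, 11 were higher and 5 lower. No share over all genes was taken under this subtraction, and the subtracted levels themselves differed between the libraries. These counts are therefore no result about the members.

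**Figure D4:**
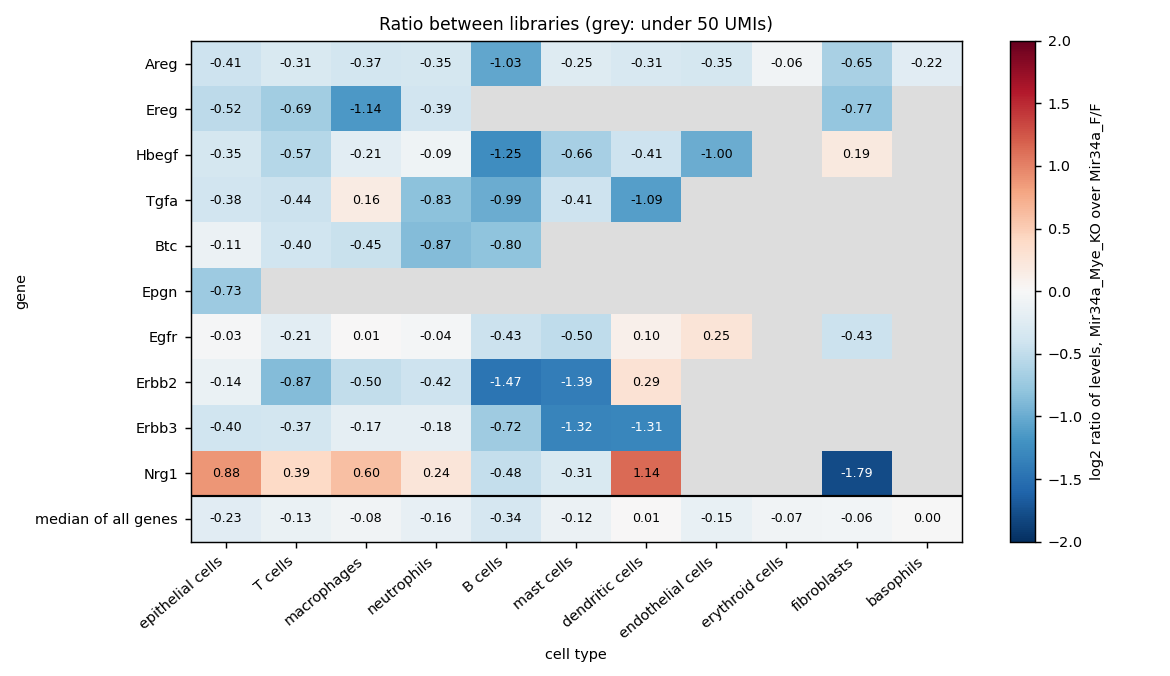
Log2 ratio of the level in the library labelled Mir34a_Mye_KO over that in the library labelled Mir34a_F/F for each member and cell type with at least 50 UMIs (grey: fewer), with the median over all genes in the bottom row. Red is higher and blue lower in the library labelled Mir34a_Mye_KO. *Nrg1* reached 1.14 in dendritic cells and -1.79 in fibroblasts, and *Areg* and *Ereg* were below 0 in each type shown.

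*Nrg1* was the member with the pairs that were higher, in dendritic cells, epithelial cells and macrophages. In macrophages the log2 ratio was 0.60 (0.55 to 0.65), and 3.93% of all genes were higher past 1.5 fold there. The mix of macrophages differed between the libraries, with a UMI of *Arg1* in 41.7% and 26.7% of them, of *Mrc1* in 37.7% and 47.0%, and of *Axl* in 43.6% and 51.8%. Its part in the ratio was not tested as a whole. In dendritic cells the log2 ratio of *Nrg1* was 1.14 (0.94 to 1.34), where 6.84% of all genes were higher. This rested on 51 of 347 and 110 of 431 cells with a UMI, at median depths of 6768 and 13564 UMIs. Among cells with a UMI, a set that depends on depth, the ratios were 0.37 in macrophages and 0.34 in dendritic cells. Without the top cell of each library the ratios were 0.60 and 1.27. Over the alternative settings they ranged from 0.54 to 1.06 in macrophages, the highest with UMIs summed over cells, and from 1.02 to 1.39 in dendritic cells. Macrophages of the library labelled Mir34a_Mye_KO had the higher *Nrg1* with and without each of *Mrc1*, *Arg1*, *Ly6c2* and *Axl*. The log2 ratio was 0.77 with *Mrc1*, the mannose receptor, and 0.38 without, and 0.99 with *Axl* and 0.23 without. In dendritic cells it was 1.48 (1.24 to 1.73) with *Ccr7* and 0.36 (0.00 to 0.74) without. In epithelial cells, the ratio was 0.88 (0.74 to 1.02), from levels of 0.115 and 0.212, and 3.69% of all genes were higher there. Macrophage markers moved with it. All 6 were present in epithelial cells, at a summed level of 2.07 and 3.17 against 42.9 and 50.8 in macrophages, and in step with them *Nrg1* would be at 0.132 and 0.258, above the measured levels. In epithelial cells without a UMI of *C1qa*, a macrophage marker, *Nrg1* was at 0.120 and 0.239, a log2 ratio of 0.99 (0.81 to 1.17), and in those with it the ratio was 0.79 (0.56 to 1.03). Without a UMI of *Ptprc*, which marks blood cells, the ratio was 0.99 (0.81 to 1.17) and with it 0.54 (0.30 to 0.78). These splits were chosen after the levels were seen. A cell without a UMI of 1 marker can still hold macrophage RNA, so they cannot set its part aside. The part of macrophage RNA in the epithelial ratio was not tested. In dendritic cells the level in step with macrophage markers was 13.5% and 11.4% of the measured one. In fibroblasts *Nrg1* was lower, with a log2 ratio of -1.79 (-2.08 to -1.50), and was -1.64 without the top cell of each library. This rested on 19 of 57 and 17 of 60 cells with a UMI, and 17.1% of all genes were lower past 1.5 fold in fibroblasts. Other markers moved in these cells. The 5 fibroblast markers were at a summed level of 72.0 and 121.1, the 5 neutrophil markers at 31.9 and 4.75, and the 6 epithelial markers at 31.7 and 20.99. Their part in the fibroblast values of *Nrg1* and *Ereg* was not tested.

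*Areg* had negative log2 ratios in all 11 cell types, past 1.5 fold in B cells and in fibroblasts, where the interval of -1.42 to 0.11 holds 0. In T cells the ratio was -0.31 (-0.34 to -0.27), in epithelial cells -0.41 (-0.44 to -0.39) and in macrophages -0.37 (-0.43 to -0.31), each within 1.5 fold and below the median over all genes. The macrophage value turned to 0.04 among cells whose marker score gave their label. In erythroid cells it was -0.06, and 0.18 with the other totals, and in basophils it was -0.22 (-0.56 to 0.12), 0.27 among cells with at least 500 genes and under 10% mitochondrial UMIs, and -0.85 without the top cell of each library. The directions in macrophages, erythroid cells and basophils are therefore not set. With the level of B cells subtracted, the ratio also turned in neutrophils (1.24), dendritic cells (1.0) and endothelial cells (0.94). The B cell level itself went from 1.05 to 0.515, so this subtraction cannot decide a direction. In these types the ratio turned under no other setting, and the endothelial interval of -0.82 to 0.12 holds 0. In B cells the ratio was -1.03 (-1.18 to -0.89), where 29.4% of all genes were lower past 1.5 fold and the epithelial markers had gone from 32.4% to 20.5% of their epithelial level. T cells were not alike. *Areg* was lower in those with a UMI of *Trdc*, at -0.85 (-0.92 to -0.79), and more so in those with *Cd8a*, at -2.34 (-2.58 to -2.10) on 589 and 197 UMIs, and close to even in those with *Foxp3*, at 0.07 (0.01 to 0.14), while it was -0.50 (-0.53 to -0.46) in those without *Foxp3*. The mix of T cells moved as well, with a UMI of *Foxp3* in 15.1% and 22.6% of them, or 6.39% and 7.08% when thinned, and the 4 regulatory T cell markers at a summed level of 21.03 and 29.11. Its part in the ratio over all T cells was not tested.

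*Ereg* had ratios below 0 in all 5 types in which it could be compared. In neutrophils the ratio of -0.39 had an interval that holds 0 (-1.05 to 0.30) and was 0.14 with UMIs summed. The log2 ratio was -0.77 (-1.06 to -0.48) in fibroblasts, -0.84 without the top cell of each library. In macrophages it was -1.14 (-1.53 to -0.75), on 126 and 100 UMIs, where 9.46% of all genes were lower past 1.5 fold. Macrophages with a UMI of *Arg1*, which had more *Ereg*, were fewer in the second library, as given above, also when thinned (20.2% and 10.0%). The ratio was -0.76 (-1.23 to -0.30) in macrophages with *Arg1* and -1.12 (-1.89 to -0.34) in those without. In epithelial cells it was -0.52 (-0.71 to -0.33). *Hbegf* was lower past 1.5 fold in B cells, mast cells (16.7% of all genes) and endothelial cells. The mast cell ratio of -0.66 was 0.07 among cells whose marker score gave their label, so its direction is not set. It was 5.92 with the level of B cells subtracted, which cannot decide the direction. That level was 0.802 and 0.338, and mast cells of the first library, at 0.805, were barely above it. In endothelial cells, where 17.8% of all genes were lower past this fold, the ratio was -1.0 (-1.44 to -0.57), and the level in step with epithelial markers was 58.0% and 76.9% of the measured one. In epithelial cells *Hbegf* had a ratio of -0.35 (-0.38 to -0.33). *Tgfa* had -0.38 (-0.44 to -0.31) in epithelial cells and 0.16 (-0.13 to 0.45) in macrophages, an interval that holds 0. *Tgfa* was lower past 1.5 fold in neutrophils (16.4% of all genes), B cells and dendritic cells (8.23%), where the level in step with epithelial markers was 76.8% to 122% of the measured one. *Btc* had -0.11 (-0.21 to -0.02) in epithelial cells and turned to 0.15 with the other totals. *Epgn* had -0.73 (-1.37 to -0.12), on 72 and 33 UMIs, but 0.18 in thinned cells. In epithelial cells 13.1% of all genes were lower past 1.5 fold.

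*Egfr* was past 1.5 fold in none of its 9 types. In epithelial cells its log2 ratio was -0.03 (-0.06 to 0.01), and 0.23 with the other totals. In fibroblasts it was -0.43 (-0.90 to 0.05), and in macrophages 0.01. *Erbb2* had -0.14 (-0.21 to -0.07) in epithelial cells, and 0.10 with the other totals. *Erbb3* had -0.40 (-0.45 to -0.34) in epithelial cells. The pairs of *Erbb2* and *Erbb3* that were past 1.5 fold lay outside the epithelium, in T cells (14.2% of all genes lower), B cells, mast cells and dendritic cells. There, the level in step with epithelial markers was between 76.3% and 151% of the measured one for *Erbb2* in T cells, B cells and mast cells and for *Erbb3* in mast cells and dendritic cells.

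The rest of the pathway was read from 36 genes in 5 lists. Of 265 pairs measured, 10 were higher and 33 lower past 1.5 fold in the library labelled Mir34a_Mye_KO, with a median log2 ratio of -0.16, against the 5.43% and 15.4% of all pairs. With mitochondrial, immunoglobulin and ribosomal RNA-like genes left out of the totals, 20 were higher and 21 lower, against 8.57% and 9.47% of all pairs. Of the early targets, which growth factor signals are known to induce, 15 of 68 pairs were lower and 0 higher. In epithelial cells *Fosl1*, a subunit of the AP-1 factor, was at 0.529 and 0.317, a log2 ratio of -0.74. *Fos*, another subunit, was at 5.88 and 3.81 in T cells, a ratio of -0.63. Feedback inhibitors of the pathway were higher in 2 and lower in 11 of 83 pairs. Among them was *Spry2*, an inhibitor of receptor signaling, at 0.359 and 0.231 in epithelial cells, a ratio of -0.63. The counts of these lists and the ratios of *Fosl1* and *Spry2* are on the main totals. There the median over all epithelial genes was -0.23, against 0.03 with the other totals. *Errfi1*, which binds and blocks Egfr, was at 3.53 and 1.69 in fibroblasts, a ratio of -1.06. Stress and immediate-early genes, which rise during dissociation of tissue, were lower in 10 and higher in 0 of 128 pairs of 12 genes, of which *Fos* and *Egr1* are also early targets. In fibroblasts *Hspa1b* had a ratio of -1.28 and *Junb* of -0.62. In epithelial cells, all 12 were below 0 and within 1.5 fold, from -0.54 for *Fos* and -0.53 for *Atf3* to -0.14 for *Hspa1a*, with a median of -0.28, beside the -0.41 of *Areg* and -0.35 of *Hbegf*, and 80.3% of all genes were below 0 there. With the other totals, 8 of the 12 were below 0, with a median of -0.02, and *Areg* was at -0.15 and *Hbegf* at -0.08. The part of dissociation in the lower ligands was not tested.

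The remaining lists are set against the same 5.43% and 15.4% of all pairs. Of the shedding genes, 2 pairs were higher and 3 lower of 31. *Adam17* was at 1.44 and 1.58 in macrophages, within 1.5 fold, and *Rhbdf1* at 0.0968 and 0.0446 in T cells, a log2 ratio of -1.12. Epithelial cells held 82.6% and 77.9% of *Rhbdf1* UMIs, and the summed epithelial markers in T cells were at 30.75 and 17.02. Their part in this ratio was not tested. Adaptors were higher in 1 and lower in 4 of 71 pairs. The other ligands and receptors (*Egf*, *Nrg2*, *Nrg3*, *Nrg4* and *Erbb4*) were higher in 5 and lower in 0 of 12 pairs. These 5 are named although all but *Nrg2* in macrophages lay in cell types that lead no member, and were chosen after their values were seen. *Egf*, the founding ligand of the family, was at 0.137 and 0.427 in dendritic cells, a log2 ratio of 1.64 (1.14 to 2.17). *Nrg2*, a neuregulin, was at 0.123 and 0.392 in B cells, a ratio of 1.67 (1.42 to 1.93), and at 0.0312 and 0.0487 in macrophages. *Egf* and *Nrg4* in B cells completed the 5, on 62 and 53 UMIs. In B cells 5.5% of all genes were higher past 1.5 fold.

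The genes whose levels followed a member most closely over the 22 groups of cell type and library were listed by Pearson's r of log2 levels among 7050 genes. The groups share libraries and depths, so r is a description. *Areg* went with *Ccl20*, a chemokine, at 0.80. *Ereg* went with *Has1*, a hyaluronan synthase, *Rerg* and *Wnt5a*, a secreted Wnt ligand, each at 0.95. *Nrg1* went with *Adap2* at 0.93, *Pid1* at 0.91 and *Axl* at 0.90. *Egfr* went with *Arhgap42* at 0.94, *Erbb2* with *Wfdc2* at 0.93, and *Hbegf* with *Trim16* at 0.92.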

How the data were processed

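The authors counted reads of 10x Genomics 3′ libraries against mm10 (Cell Ranger 7.2.0), excluded doublets by Scrublet and scaled each cell to 10000 UMIs. The deposited values are on a natural log scale with 1 added (Seurat's LogNormalize). No further doublets were taken out. The deposited library and cell type of each cell were used as given. Of 38883 cells, the number the study also states, all had over 200 genes, but 32283 had under 25% mitochondrial UMIs, the filter the methods name. All cells were used.

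Taking values off the log scale and dividing by the lowest value above 0 in a cell gave whole UMIs (largest deviation 1.5e-10). UMI sums had exact Poisson intervals and shares exact binomial ones. The interval of a level was that of its UMI sum, scaled to the level. A log2 ratio of mean levels had an interval whose width came from the summed UMIs. Levels give UMIs of shallow cells more weight than sums do, so these intervals can be too narrow. In fibroblasts, 1 UMI made up 19.45% and 21.18% of the *Areg* level. UMIs reach 147109016 and 193133086 per library. Pairs with at least 50 UMIs were compared and counted past 1.5 fold. With 1 library per genotype no p-value was computed. The level in step with markers was the level in the source cell type times the ratio of summed marker levels. Computations ran in Python 3.11.15 (pandas 2.3.3, scipy 1.17.1, numpy 2.4.6) and were tested on simulated data.

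The members and lists were chosen with earlier results of these data known. All 10 members, list genes past 1.5 fold in cell types that lead a member, and the 3 genes most alike in pattern to each member with at least 1000 UMIs could be named. The alternatives were a pseudocount of 0.05, ratios of summed UMIs, cells thinned to 1000 UMIs, cells with at least 500 genes and under 10% mitochondrial UMIs, cells under 25%, cells whose marker score gave their label, totals without 409 mitochondrial, immunoglobulin and ribosomal RNA-like genes, a background cell type subtracted (B cells for *Areg* and *Hbegf*, T cells for others), 2 fold, UMI minimums of 20 and 200, and cell types under 100 cells left out. Leaving out the top cell and 17 further marker splits were chosen after seeing the data.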

Additional observations from a re-analysis of the deposited data

Results flagged for a closer look

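*Nrg1* was higher in the library labelled Mir34a_Mye_KO in epithelial cells (log2 ratio 0.88), macrophages (0.60) and dendritic cells (1.14), and lower in fibroblasts (-1.79). It was singled out because these cell types moved in opposite directions. The difference between the cell types was not tested, since there was 1 library per genotype, and the fibroblast value rests on 57 and 60 cells. In epithelial cells the measured levels, 0.115 and 0.212, were below those in step with macrophage markers. The part of macrophage RNA in the epithelial value was not tested. No group had the 4 samples that a search for outlying samples needs.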

How the results depend on the processing

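No paired analysis was possible because there was 1 library per genotype. Of 584 log2 ratios of members under the alternatives, 453 stayed inside the interval given for the main value and 131 did not. The sign changed in 58, over 34 of the 69 pairs, with 15 of 69 in thinned cells and 14 of 32 with a background cell type subtracted. Of these 58, 6 were of pairs past 1.5 fold, namely *Hbegf* in mast cells, at 0.069 among cells whose marker score gave their label and 5.924 with B cells subtracted, *Btc* in neutrophils (0.194) and B cells (0.429) and *Epgn* in epithelial cells (0.179) when thinned, and *Btc* in B cells (0.097) by marker score. The 5 members with the same leading cell type in both libraries became 8 with UMIs summed and 8 in cells with at least 500 genes and under 10% mitochondrial UMIs. Against 3 higher and 21 lower pairs of members, thinning gave 5 lower (of 32 pairs), 4 of them among the 21, the 200 UMI minimum 9 lower (of 45) and 2 fold 1 higher and 9 lower (of 69). UMIs summed over cells gave 4 higher and 26 lower (of 69), 20 of them among the 21, and 11 higher and 43 lower of 265 pathway pairs. Marker score gave 5 higher and 18 lower (of 63), against 6.13% and 13.4% of all pairs. Subtraction of a background cell type gave 11 higher and 5 lower (of 32). No share over all genes was taken for this subtraction, for 2 fold or for the 20 UMI minimum. The 10 higher and 33 lower of 265 pathway pairs became 4 and 17 of 164 when thinned, 20 and 21 with the other totals, 4 and 12 at 2 fold, 19 and 57 of 320 with 20 UMIs, 5 and 18 of 205 with 200 UMIs, and 6 higher with a pseudocount. The 10 of 62 splits past 1.5 fold in both libraries became 4 of 40 when thinned. The cause of these shifts was not tested. Leaving out the top cell of each library moved 1 of 69 ratios out of its interval, *Areg* in basophils, and turned *Egfr* in endothelial cells from 0.25 to -0.10. Rare transcripts such as *Epgn* and the smallest cell types are limited by their UMIs, and no setting replaces a replicate.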
